A study of Homo sapiens with 4 samples.

Results

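The TNF receptor and ligand superfamily was taken as the 33 protein-coding genes of chromosomes 1 to 22 whose GENCODE release 44 symbol starts with TNFRSF or TNFSF, out of 19111 protein-coding genes of these chromosomes. They are 21 receptors, 11 ligands and the read-through record TNFSF12-TNFSF13, which joins the neighbouring ligand genes TNFSF12 and TNFSF13 and shares their peaks and loops. A peak belonged to a gene when its summit lay within 20 kb of the 5′ end of the gene record, and a loop when 1 of its 5 kb anchors lay within 1 kb of that start. Positions are in hg38.

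The cells are HG00731, a lymphoblastoid cell line (LCL), that is B cells immortalised with Epstein-Barr virus. HiChIP couples proximity ligation of chromatin to immunoprecipitation of a protein and so records both where the protein sits and which fragments it holds together. SMC1, a subunit of the cohesin ring, was precipitated from cells fixed with formaldehyde and then EGS (FA-EGS HiChIP), and CTCF, the zinc finger protein at which cohesin stops, from cells fixed with formaldehyde alone. Each target had 2 biological replicates, which were pooled before peaks and loops were called, so every value below comes from 1 pooled list per target, no value has a spread between replicates and no test was made. Fixation and target cannot be told apart.

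The contents of the 2 loop lists went against their labels. MAPS, the loop caller, keeps bin pairs in which at least 1 anchor holds a peak of the precipitated protein. All 80487 loops of the list labelled CTCF held an SMC1 peak at an anchor, while 3745 of them held no CTCF peak. All 28012 loops of the list labelled SMC1 held a CTCF peak, and 11 held no SMC1 peak. The loop totals that the study lists per target are also the other way round, with the longer list under SMC1. By its content and its length, the list labelled CTCF is thus the cohesin (SMC1) list and the list labelled SMC1 the CTCF list. Loops are named below by the deposited label of their list, and wherever a list is named the target is to be read as the other one. The peak lists hold 97364 SMC1 and 63555 CTCF peaks, and the loop lists sum to 788356 read pairs under the label SMC1 and 2666327 under the label CTCF.

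TNF superfamily ligands are mostly trimeric membrane proteins that cluster their receptors, which signal through TRAF adaptors to NF-kappaB or through death domains to caspases. B cells depend on several of them. BAFF and APRIL keep B cells and plasma cells alive, and receptors such as CD40 and CD30 or ligands such as OX40L and CD70 carry signals between B cells and T cells. Cohesin extrudes chromatin loops and is held at CTCF sites, mostly where their motifs point towards each other, and it also gathers at active promoters and enhancers without CTCF.

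The sequences under CTCF summits near these genes are shown first, since they include the strongest CTCF peaks of the superfamily, and the one at TNFSF9 recurs in the loops described further on. The pattern searched was CCNNNAGNNGGC, the core of the CTCF motif with 7 of its 12 letters fixed, on both strands. It stood within 50 bp of the summit at 7 of the 76 CTCF peaks near the superfamily genes, and 7.13% of all CTCF peaks of chromosomes 1 to 22 held it, against 1.33% of the windows 1000 bp away. The share near these genes, 9.21%, rests on few peaks. A window without the pattern says only that these letters are absent there. The windows 1000 bp from the superfamily peaks held it in 3.95% of cases. Of the 7 peaks, 5 are shown, the other two being a peak of TNFRSF10D with a -log10 q-value of 126 and a weaker peak of TNFRSF25 with 8.13. Each is given as 60 bases around the pattern, 5′ to 3′ on the strand of the pattern, with the pattern in capitals.
TNFSF9, 14.0 kb upstream of the start, intergenic, chr19:6517023-6517082, plus strand: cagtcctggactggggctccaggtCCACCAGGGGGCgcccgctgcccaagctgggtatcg
TNFRSF25, 9.50 kb upstream, intron of PLEKHG5, chr1:6475653-6475712, minus strand: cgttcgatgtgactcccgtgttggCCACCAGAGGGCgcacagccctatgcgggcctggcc
TNFRSF12A, 9.97 kb downstream, coding exon of BICDL2, chr16:3028352-3028411, minus strand: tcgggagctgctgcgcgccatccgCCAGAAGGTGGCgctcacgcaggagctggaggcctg
TNFRSF17, 7.03 kb downstream, intron of NPIPB2, chr16:11972208-11972267, plus strand: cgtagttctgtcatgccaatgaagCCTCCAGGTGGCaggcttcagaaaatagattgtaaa
TNFRSF9, 0.66 kb downstream, noncoding exon of an unnamed gene, chr1:7942453-7942512, minus strand: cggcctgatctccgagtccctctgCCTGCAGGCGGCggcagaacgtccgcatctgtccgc
The first 3 belong to the CTCF peaks with the highest -log10 q-values near any gene of the superfamily, 393 at TNFSF9, 345 at TNFRSF25 and 325 at TNFRSF12A. The other two are weaker, 30.03 at TNFRSF17 and 14.7 at TNFRSF9.

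SMC1 or CTCF was found near nearly all of the genes. An SMC1 peak lay within 20 kb of the start of 31 of the 33 genes, against 84.2% of all coding genes, and a CTCF peak of 29, against 79.3%. Within 1 kb of the start, SMC1 peaks were listed at 21 genes, against a background of 51.3%, and CTCF peaks at 13, against 34.7%. In all, 138 SMC1 and 76 CTCF peaks lay within 20 kb of a start. Of these, 10 SMC1 and 6 CTCF peaks lay near more than 1 gene of the superfamily, at the TNFRSF4 and TNFRSF18 pair, the TRAIL receptor cluster and the TNFSF12 and TNFSF13 locus, so neighbouring genes are not independent observations. The median gene had 5 SMC1 and 3 CTCF peaks, where the median coding gene had 3 and 2.

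SMC1 peaks without CTCF made up most of the SMC1 peaks near these genes. Of the 138 SMC1 peaks, 53 (38.4%) overlapped a CTCF peak by at least 1 bp, whereas 51.7% of the SMC1 peaks near any coding start did. From the other side, 54 of the 76 CTCF peaks (71.1%) overlapped an SMC1 peak, against a background of 78.6%. The median gene of the superfamily had 3 SMC1 peaks without CTCF and the median coding gene 1, and 28 of the 33 genes had at least 1, against 62.4% of coding genes. These SMC1 peaks were weaker than the shared ones, with a median -log10 q-value of 12.0 over 85 peaks against 48.4 over 53. Of the 85, 40 lay in introns and 32 in intergenic DNA, and 9 lay within 1 kb of a start. TNFRSF13B had 10 of them, and TNFRSF8, TNFRSF1B and TNFSF4 had 7 each. The study lists more reads in total for SMC1 than for CTCF in these cells, and whether depth bears on the overlap was not tested.

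**Figure D1:**
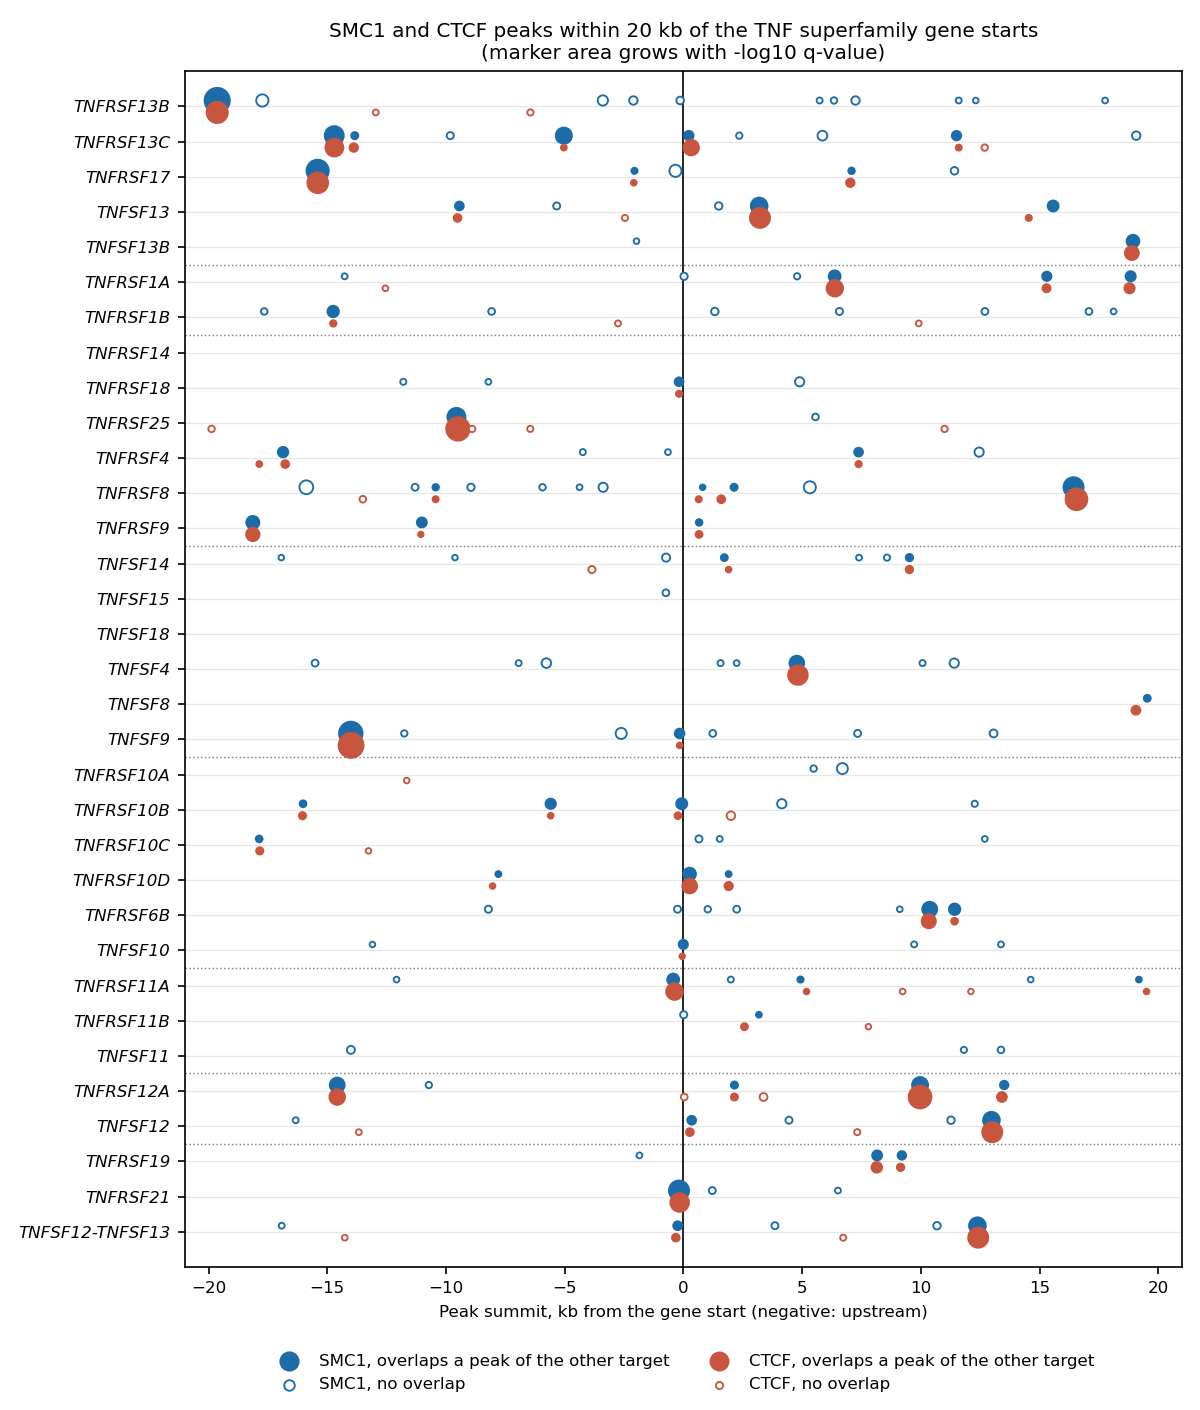
Each row is a gene, grouped by role between dotted lines, and each circle a peak summit at its distance in kb from the gene start (upstream to the left), SMC1 in blue above CTCF in red, with the area growing with the -log10 q-value and filled circles for peaks that overlap a peak of the other target. The rows of TNFRSF14 and TNFSF18 are empty, TNFRSF13B holds 10 open SMC1 circles, and the large filled pairs lie mostly several kb from the start, as 14.0 kb upstream of TNFSF9.

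The strongest peak near a gene was above the median of all coding genes at 21 of the 31 genes for SMC1 and at 18 of the 29 for CTCF. The highest -log10 q-value within 20 kb had a median of 89.8 for SMC1 over the 31 genes with a peak, against 55.0 over 16099 coding genes, and of 126 for CTCF over 29 genes, against 75.8 over 15161. It exceeded the upper quartile of all coding genes at 13 of the 31 genes for SMC1 and at 14 of the 29 for CTCF. TNFSF12, TNFSF13 and the read-through record share the same strongest peak pair, 167 for SMC1 and 247 for CTCF. That pair is counted for each of them in these numbers and medians. At the other end stood TNFSF10 and TNFRSF10A, with a highest CTCF value of 3.02 and 3.29 beside SMC1 values of 39.8 and 62.1.

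**Figure D2:**
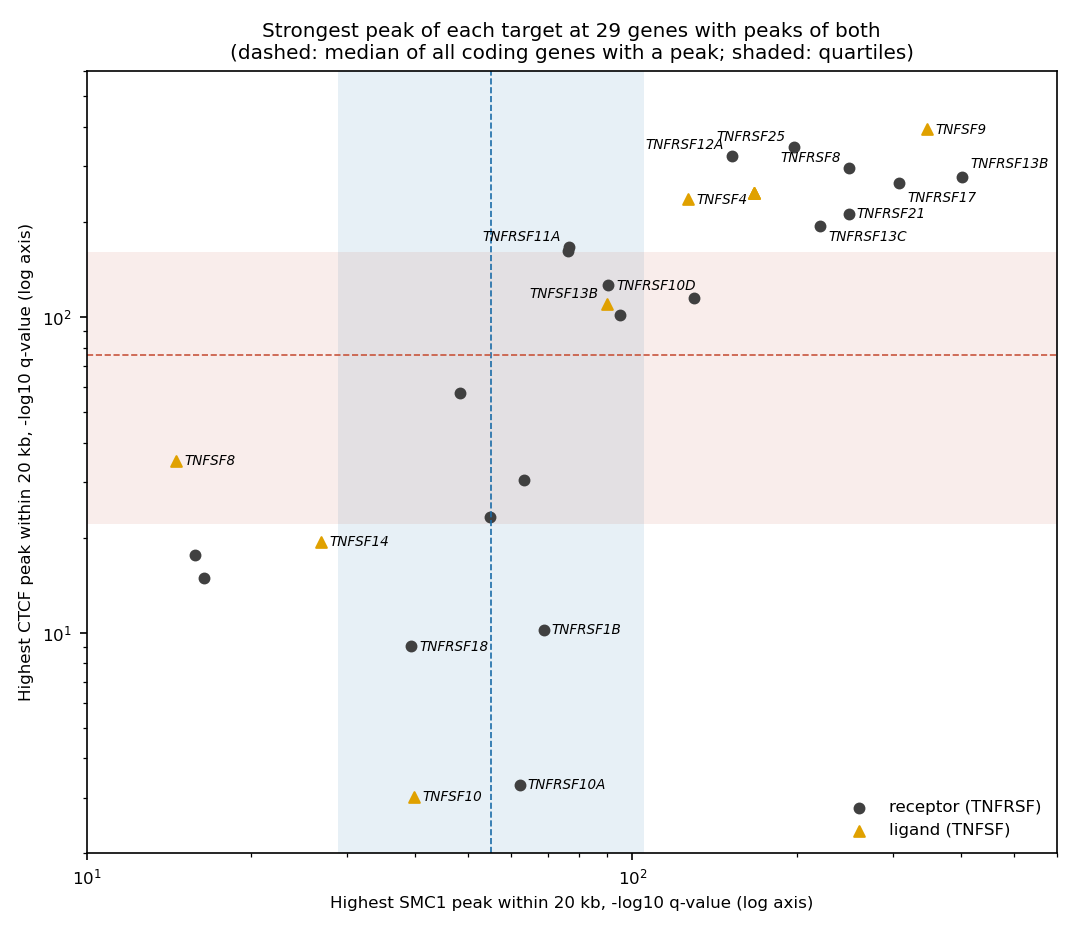
The highest -log10 q-value of an SMC1 peak (horizontal, log axis) is plotted against that of a CTCF peak (vertical, log axis) within 20 kb of the 29 genes that have both, circles for receptors and triangles for ligands, with dashed lines and shading for the median and quartiles of all coding genes with a peak. TNFSF9 and TNFRSF13B stand at the upper right, with 346 and 402 for SMC1, and TNFSF10 and TNFRSF10A lie low for CTCF.

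The BAFF and APRIL axis holds the receptors TACI (TNFRSF13B), BAFF receptor (TNFRSF13C) and BCMA (TNFRSF17) and the ligands APRIL (TNFSF13) and BAFF (TNFSF13B). TNFRSF13B, on chromosome 17, had 11 SMC1 peaks, of which 10 did not overlap CTCF, a number reached or passed by 0.0209% of coding genes. They ran from 17.7 kb upstream to 17.8 kb downstream of the start, with -log10 q-values of 3.64 to 81.5, and the one nearest the start lay 136 bp upstream with 21.3. The shared peak of this gene lay 19.6 kb upstream and had the highest SMC1 value of the superfamily, 402, with 279 for CTCF. Neither loop list held a loop at the TNFRSF13B start.

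TNFRSF17, expressed in plasma cells and late B cells, had loops in both lists, in opposite directions. Its start carried an SMC1 peak without CTCF 335 bp upstream, with a -log10 q-value of 79.3 and a fold enrichment over the local background of 4.04, inside an intron of NPIPB2. The strongest peak pair lay 15.4 kb upstream, with 308 for SMC1 and 265 for CTCF. In the list labelled SMC1 the only loop of the start spanned 15 kb to the bin of that peak, with 74 read pairs against 25.7 expected (95% exact Poisson interval of the observed count 58.1 to 92.9). In the list labelled CTCF the 8 loops of the start ran the other way, over 65 to 105 kb, and all ended within the gene SNX29, in 2 stretches of touching bins. The strongest had 43 read pairs against 12.3 expected (31.1 to 57.9). A Poisson interval covers counting error only.

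Short letter patterns were counted on both strands at the SMC1 peaks without CTCF. The E-box letters CAGCTG stood within 100 bp of the summit at 13 of the 85 SMC1 peaks without CTCF near superfamily genes (15.3%), at 10.7% of all 50118 such peaks and at 8.30% of windows 2000 bp away. The RUNX letters TGTGGT were found at 17.6% and the AP-1 letters TGANTCA at 10.6% of the 85 peaks, against 16.4% and 8.72% of all such peaks. The ETS letters GGAAGTG stood at 7.06% against 6.004%, the kappaB letters GGGANTTCC at 1 of the 85 peaks (1.18% against 0.992%) and the EBF letters TCCCNNGGGA at 1 (1.18% against 0.621%). No overlap between these letters and the CTCF pattern was examined.

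TNFRSF13C, through which BAFF sustains mature B cells, had 9 SMC1 and 6 CTCF peaks, 5 of each shared, the strongest 14.7 kb upstream with 221 for SMC1 and 194 for CTCF. A CTCF peak with a -log10 q-value of 140 lay 329 bp downstream of the start, in an intron, and an SMC1 peak with 43.1 overlapped it. The shared peak 5.04 kb upstream had the opposite balance, 155 for SMC1 and 5.89 for CTCF. Its only loop, in the list labelled CTCF, spanned 230 kb to a bin with the start of MEI1 and had 18 read pairs against 7.14 expected. The far peak of this loop, with 326 for CTCF, held the CTCF pattern within its interval at chr22:41697250-41697309, plus strand, shown as the far end of a BAFF receptor loop.
TNFRSF13C far anchor: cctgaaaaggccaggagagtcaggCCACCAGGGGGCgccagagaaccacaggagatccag
For TNFSF13B the lists held few peaks, 2 for SMC1 and 1 for CTCF, and no loop. Its shared peak lay 18.9 kb downstream in a coding exon of TNFSF13B itself, with 89.8 and 110.

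TNFSF12 (TWEAK), the read-through record and TNFSF13 lie next to each other on chromosome 17, and a CTCF peak 3.22 kb downstream of the TNFSF13 start lay within 20 kb of all 3 starts, with a -log10 q-value of 247 beside 167 for SMC1. A weaker shared peak lay at the TNFSF12 start, with 34.2 for SMC1 and 22.7 for CTCF. Each of the 3 starts had 1 loop in the list labelled SMC1, all to the bin with the starts of FGF11 and TMEM102, over 110 or 120 kb, with 18 read pairs against 6.97 expected from the TNFSF12 bin and 21 against 6.45 from the TNFSF13 bin. In the list labelled CTCF, TNFSF12 had 3 loops, the read-through record 8 and TNFSF13 4. Most of them ended 20 to 45 kb away, in the body of POLR2A, the largest subunit of RNA polymerase II, or between it and the TNFSF12 start, with 24 to 39 read pairs, and 2 reached the TMEM95 start over 195 and 200 kb, with 13 and 15. Only the loop from TNFSF13 to FGF11 and TMEM102 was called between the same bins in both lists, with 28 read pairs under the label CTCF and 21 under the label SMC1. TNFRSF12A, the TWEAK receptor, had 5 SMC1 and 6 CTCF peaks, the highest CTCF value being 325, and no loop.

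TNFRSF1A and TNFRSF1B are the receptors of TNF itself, the first found on nearly every cell and the second mainly on lymphoid and myeloid cells. SMC1 without CTCF lay at the TNFRSF1A start, 28 bp downstream with 17.8, and the strongest peak pair 6.37 kb downstream by its SMC1 summit, in an intron, with 76.3 for SMC1 and 162 for CTCF. TNFRSF1B had 8 SMC1 peaks, 7 of them without CTCF, a number that 0.513% of coding genes reach, and a highest CTCF value of 10.2. Its start had 1 loop labelled SMC1, over 40 kb within its own gene, with 33 read pairs against 13.7 expected. The 2 loops labelled CTCF ran the other way, over 40 and 25 kb, into the body of the neighbouring gene TNFRSF8, with 49 read pairs against 21.04 expected and 30 against 12.2. The only loop at TNFRSF1A, labelled CTCF, spanned 25 kb to a bin within SCNN1A, 5.04 kb from the start of LTBR, the lymphotoxin beta receptor, with 29 read pairs against 10.4 expected.

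None of the 6 receptors grouped here as costimulatory had a loop at its start in either list. Among coding genes, 22.4% had a loop labelled SMC1 and 44.2% one labelled CTCF. TNFRSF14, described below, has a start window that is also found on an alternate contig. No loop was listed at any of the 677 coding starts of this kind, so its lack of a loop cannot be read as a trait of the group. CD27 and CD40, superfamily receptors with other symbols, were outside this group. CD27 had 1 loop labelled SMC1 and 2 labelled CTCF, and CD40 had 1 labelled SMC1 and none labelled CTCF. Peaks were not lacking at most of the 6. TNFRSF8 (CD30), a receptor of activated B cells, had 11 SMC1 peaks, 7 without CTCF, and its strongest pair 16.4 kb downstream by its SMC1 summit, in an intron, with 250 for SMC1 and 295 for CTCF. Its strongest SMC1 peak without CTCF lay 15.9 kb upstream with 108, the highest value of any such peak near the superfamily. At TNFRSF25 (DR3) the strongest CTCF peak, 345, lay 9.50 kb upstream in PLEKHG5, and 4 of its 5 CTCF peaks had no SMC1 overlap. TNFRSF9 (CD137) had 3 peaks of each target, every one shared, the strongest 18.1 kb upstream in an intron of PARK7 with 94.8 for SMC1 and 102 for CTCF. TNFRSF4 (OX40) and TNFRSF18 (GITR) share 4 SMC1 peaks, the strongest with 39.3, and the start of TNFRSF18 carried SMC1 at 33.9 and CTCF at 9.05.

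TNFRSF14 (HVEM), the remaining costimulatory receptor, had no peak of either target within 20 kb and no loop. The nearest summits lay 111538 bp to the left for both targets, and 266419 bp (CTCF) and 764851 bp (SMC1) to the right, so no CTCF peak was listed over 377 kb and no SMC1 peak over 875 kb. The reference used here carries an alternate contig that aligns to chr1:2448818-2791261, around this gene, and 99.85% of the 5 kb on either side of the start was also found on it. Reads that match the chromosome and such a contig equally well can receive a low MapQ, and the authors kept reads with a MapQ over 30. Among the 677 coding genes whose start window is found on a contig in this way, 5.76% had an SMC1 and 7.09% a CTCF peak within 20 kb, against 87.1% and 82.0% of the other 18434, and no loop was listed at any of the 677 starts. No other gene of the superfamily was among them. Of the stretch without peaks, 342 kb lay within the extent of the contig, and 35.0 kb of the CTCF stretch and 533 kb of the SMC1 stretch lay outside it. The estimated identity to the contig was 79.2% over this whole extent, against 100% for the 5 kb on either side of the start. Whether the contig has a part in the stretch without peaks was not tested. How the authors' alignment treated reads that also match alternate contigs is not given in the sources used here.

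TNFSF9, TNFSF14 and CD70, which encode the ligands of CD137, of HVEM and of CD27, form a cluster on chromosome 19. The CTCF peak 14.0 kb upstream of TNFSF9, printed first above, had the highest CTCF value of the superfamily, 393, with 346 for SMC1, and it lay in an anchor of loops from all of these genes. From the bin of this peak, 155 and 150 kb long loops reached the TNFSF14 start in both lists, with 30 and 25 read pairs against 5.04 and 5.29 expected under the label SMC1 and 36 and 34 against 12.6 and 11.1 under the label CTCF. The CD70 start was joined to the same bin over 85 kb with 47 read pairs against 12.1 expected under the label SMC1 and 96 against 24.7 under the label CTCF. The TNFSF9 start itself met this bin over 15 kb in the list labelled SMC1, with 65 read pairs against 26.1 expected (50.2 to 82.8).

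The TNFSF9 start carried a peak 160 bp upstream that was mostly SMC1, 43.98 against 3.99 for CTCF, and an SMC1 peak without CTCF 2.62 kb upstream with 63.5. Its strongest loop in the list labelled CTCF ended in the body of CD70 over 60 kb, with 90 read pairs against 27.9 expected (72.4 to 111). A loop of 100 kb to the far side of CD70 was called between the same bins in both lists, with 56 and 16 read pairs. TNFSF14 had 7 SMC1 peaks, 5 without CTCF, none above 26.9, and 4 loops in each list, between the same bins in both. Besides those to the TNFSF9 side, 2 loops per list joined it to the bin with the starts of GPR108 and TRIP10 over 65 and 70 kb, with up to 74 read pairs against 30.5 expected under the label CTCF and up to 31 against 8.90 under the label SMC1.

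**Figure D3:**
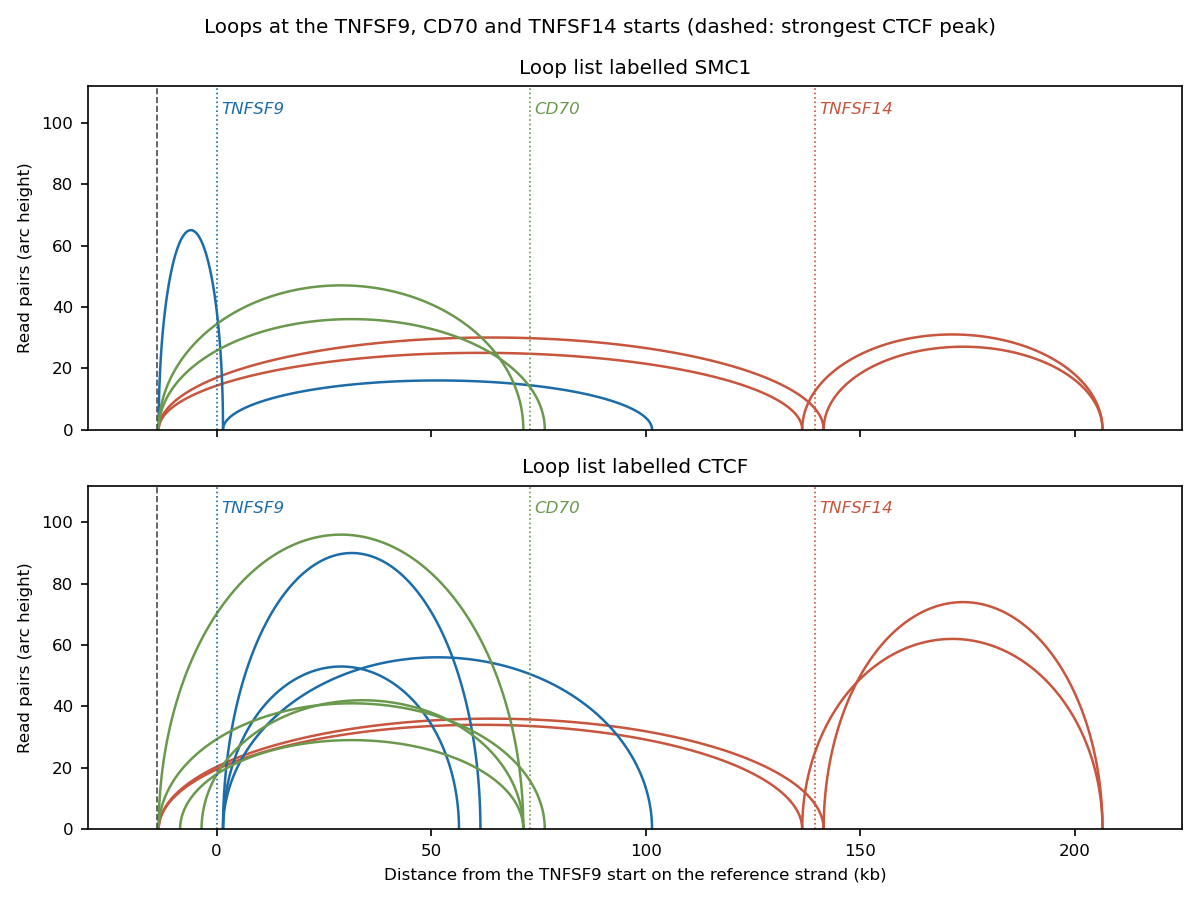
Arcs join the anchor bins of loops at the starts of TNFSF9 (blue), CD70 (green) and TNFSF14 (red), by distance in kb from the TNFSF9 start, with the height of an arc giving its read pairs, for the list labelled SMC1 (top) and the list labelled CTCF (bottom). In both panels CD70 and TNFSF14 arcs end at the dashed line, the CTCF peak 14.0 kb upstream of TNFSF9.

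Of the other costimulatory ligands, TNFSF4 (OX40L), which activated B cells present to T cells, had the longest loops of the superfamily. It had 8 SMC1 peaks, 7 without CTCF, and its only CTCF peak lay 4.82 kb downstream in an intron, with 236 beside 127 for SMC1. All of its 6 loops were in the list labelled CTCF. The strongest spanned 460 kb to a bin 85.9 kb from the start of FASLG, the Fas ligand gene, with 37 read pairs against 3.26 expected, a ratio of 11.4 (26.1 to 51.0 read pairs), with others of 465 and 380 kb on the same side, and 3 loops of 200 to 210 kb ran to the other side. The anchor at the start held an SMC1 peak of 7.34 and no CTCF peak. TNFSF8 (CD30L) had 1 shared peak, 19.1 kb downstream by its CTCF summit, with 34.9, TNFSF15 (TL1A) had an SMC1 peak of 12.6 without CTCF 738 bp upstream, and neither had a loop. TNFSF18 (GITRL), near TNFSF4 on chromosome 1, had no peak within 20 kb. Its nearest summits lay 30288 bp (SMC1, 7.21) and 151567 bp away (CTCF), the latter being the TNFSF4 peak, and its start window was on no alternate contig.

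TRAIL (TNFSF10) induces apoptosis through the death domain receptors TNFRSF10A and TNFRSF10B, while TNFRSF10C and TNFRSF10D are decoys for it, and TNFRSF6B is a soluble decoy for the Fas ligand, LIGHT and TL1A. An SMC1 peak lay within 1 kb of 5 of these 6 starts, against 51.3% of coding genes. TNFSF10 carried SMC1 6 bp upstream of its start with 39.8 and CTCF at 3.02, and its 3 loops labelled CTCF and 1 labelled SMC1 ran upstream over 60 to 75 kb. The loop of 75 kb was called between the same bins in both lists, with 24 read pairs against 9.29 expected under the label CTCF and 15 against 2.89 under the label SMC1, to a bin with a CTCF peak of 157.

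In the receptor cluster on chromosome 8 only TNFRSF10D and TNFRSF10B had loops, 7 and 1, all labelled CTCF. The TNFRSF10D start held the strongest peaks of the cluster, 259 bp (SMC1, 90.2) and 265 bp (CTCF, 126) downstream, and its loops ran in 1 direction over 50 to 250 kb, 2 of them into the body of TNFRSF10A and the strongest to a bin within CHMP7, with 49 read pairs against 12.3 expected (36.3 to 64.8). TNFRSF10A itself had 2 SMC1 peaks without CTCF in its introns, the stronger with 62.1 at 6.70 kb downstream, and TNFRSF10C 4 SMC1 peaks of at most 15.8. At TNFRSF6B, the decoy DcR3 next to RTEL1, 5 of 7 SMC1 peaks were without CTCF, and 1 loop labelled CTCF spanned 165 kb to the bin with the starts of ABHD16B and TPD52L2, with 19 read pairs against 6.60 expected.

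RANK (TNFRSF11A), its ligand RANKL (TNFSF11) and osteoprotegerin (TNFRSF11B), the soluble decoy for RANKL, govern osteoclasts and lymph node formation. TNFRSF11A had a strong shared peak 376 bp upstream by its CTCF summit, with 166 for CTCF and 76.5 for SMC1, and loops downstream in both lists, 4 labelled CTCF and 1 labelled SMC1. The strongest spanned 100 kb, to a bin past the 3′ end of the gene, with 57 read pairs against 10.3 expected, a ratio of 5.55. The list labelled SMC1 held a loop to the adjoining bin with 20 against 7.195. TNFSF11 had 3 SMC1 peaks without CTCF, none above 24.6, and no CTCF peak, and TNFRSF11B 2 peaks of each target, none above 16.4. Neither had a loop. TNFRSF19 (TROY), a receptor of epithelial and neural cells, likewise had no loop, and its strongest peaks, 48.4 for SMC1 and 57.3 for CTCF, lay in an intron, the SMC1 summit 8.16 kb downstream of the start.

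TNFRSF21 (DR6), a death receptor that restrains the activation of T and B cells, had the most loops of the superfamily in the list labelled CTCF, and as many as TNFSF14 in the list labelled SMC1. One shared peak 158 bp upstream by its CTCF summit had 212 for CTCF and 249 for SMC1. The start had 13 loops in the list labelled CTCF, a number reached by 1.90% of coding genes, and 4 in the list labelled SMC1, reached by 5.42%. Since neighbouring 5 kb bins are called separately, these fall into 5 and 1 stretches of touching far bins. The loop with the most read pairs and the highest ratio in the list labelled CTCF joined the start over 215 kb to chr6:47095001-47100000, with 106 read pairs against 6.10 expected there, a ratio of 17.4 (86.8 to 128 read pairs), and 33 against 2.69 in the list labelled SMC1, a ratio of 12.3 (22.7 to 46.3). The far bin lies in intergenic DNA downstream of the gene, 52.7 kb from the nearest coding start, that of ADGRF1, and holds an SMC1 peak of 71.5 and a CTCF peak of 54.2.

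The CTCF peaks that overlap the anchors of this loop held the CTCF pattern within their interval, and 60 bases of each are shown. It is the superfamily loop with the most read pairs under the label CTCF. Such a whole-interval match is common, at 25.5% of all CTCF peaks, and both matches lay on the plus strand. At the start, the peak crosses the bin edge. The pattern there lies outside the anchor of this loop, in the adjoining bin chr6:47305001-47310000, which has its own loop to the same far bin with 98 read pairs.
TNFRSF21 start, chr6:47309958-47310017: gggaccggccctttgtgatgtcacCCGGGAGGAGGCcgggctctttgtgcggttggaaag
TNFRSF21 far anchor, chr6:47097502-47097561: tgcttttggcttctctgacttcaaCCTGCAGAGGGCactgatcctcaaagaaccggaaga
Of the 76 CTCF peaks near superfamily starts, 18 (23.7%) had the pattern within their interval.

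**Figure D4:**
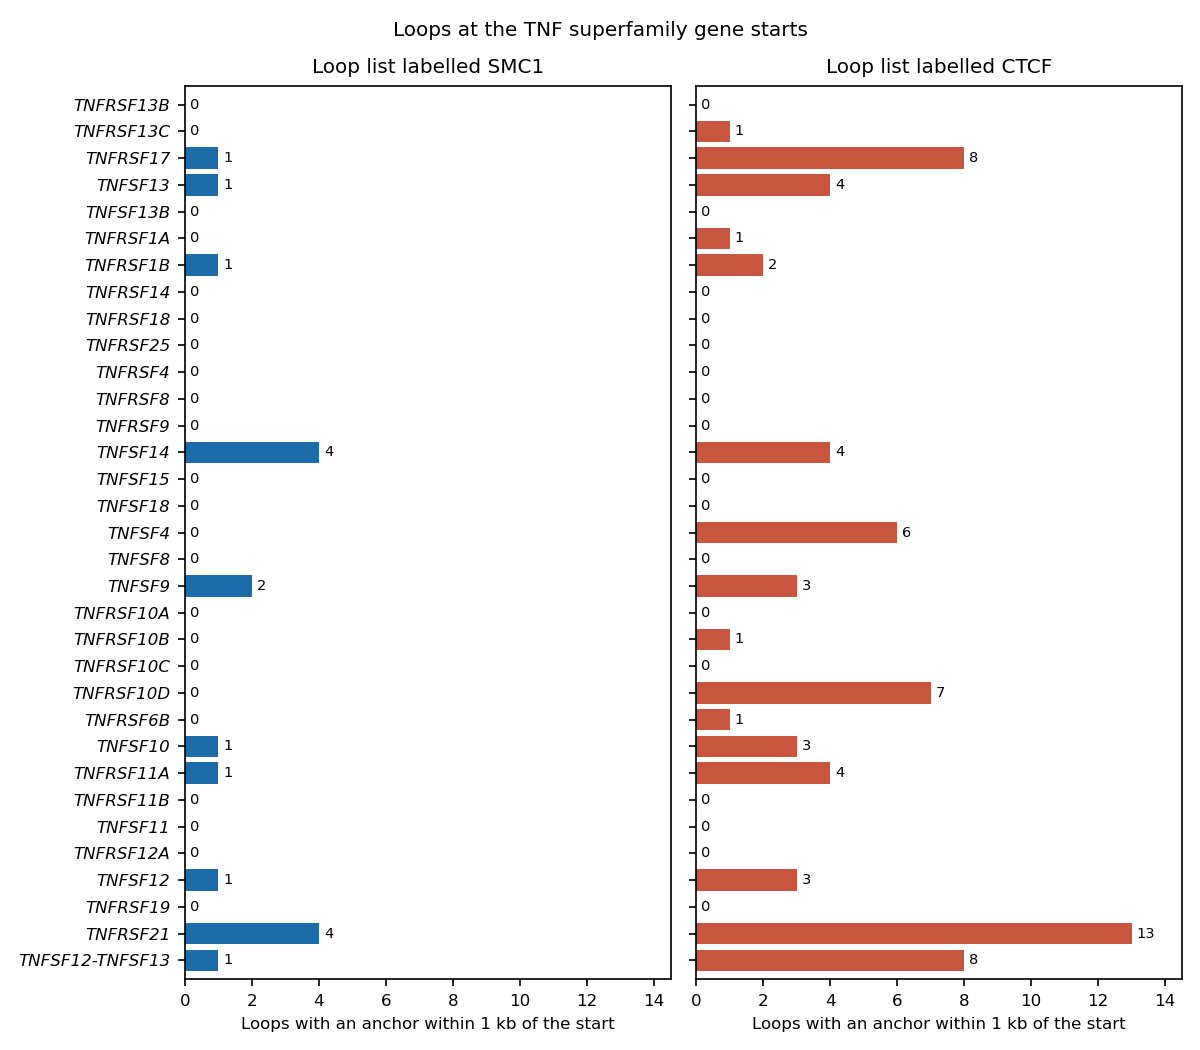
Bars give the number of loops with an anchor within 1 kb of each gene start, from 0, in the list labelled SMC1 (left) and the list labelled CTCF (right). TNFRSF21 has 4 and 13, TNFSF14 has 4 in each, and all 6 receptors grouped as costimulatory, TNFRSF14 to TNFRSF9, have 0 in both.

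Over the superfamily, 10 of the 33 genes had a loop labelled SMC1 (30.3%, against 22.4% of coding genes) and 16 a loop labelled CTCF (48.5%, against 44.2%, which is close to it). The 10 were all among the 16, so 30.3% of the genes had loops in both lists, against 20.4% of coding genes. Such nesting was general, as 3892 of the 4276 coding genes with a loop labelled SMC1 also had one labelled CTCF. By role, with the read-through record counted among the ligands, 6 of 12 ligand records and 4 of 21 receptors had a loop labelled SMC1, and 7 and 9 a loop labelled CTCF, although 3 of the ligand records share 1 locus. Distinct loops numbered 16 and 66, of which 11 joined the same bins in both lists. The share of all loops that do so was not computed. The far anchor of the superfamily loops held another coding start in 4 of 16 labelled SMC1 (25%) and in 8 of 66 labelled CTCF (12.1%). Of all loops at any coding start, 14.2% and 13.0% had coding starts at both anchors. That background counts a loop between 2 starts as 1 loop, though it can be reached from either end. The shares are therefore not directly comparable. The 4 loops ended at the bin of FGF11 and TMEM102 or at that of GPR108 and TRIP10. No loop joined the starts of 2 genes of the superfamily.

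Read pairs and spans of these loops were close to those of coding starts in general. The median loop had 23 read pairs under the label SMC1 and 27 under the label CTCF, against 23 and 25 at all coding starts, and a median span of 107.5 and 92.5 kb, against 115 and 105. All 16 near anchors of loops labelled SMC1 overlapped an SMC1 peak, where 95.7% of such loops at any coding start did, and 15 a CTCF peak. Among the 66 near anchors labelled CTCF, 47 overlapped a CTCF peak, against 84.4% at any coding start, while all 66 overlapped an SMC1 peak. The 19 near anchors without CTCF in the list labelled CTCF include all loops of TNFSF4 and TNFRSF1B there and the single loop of TNFRSF1A.

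**Figure D5:**
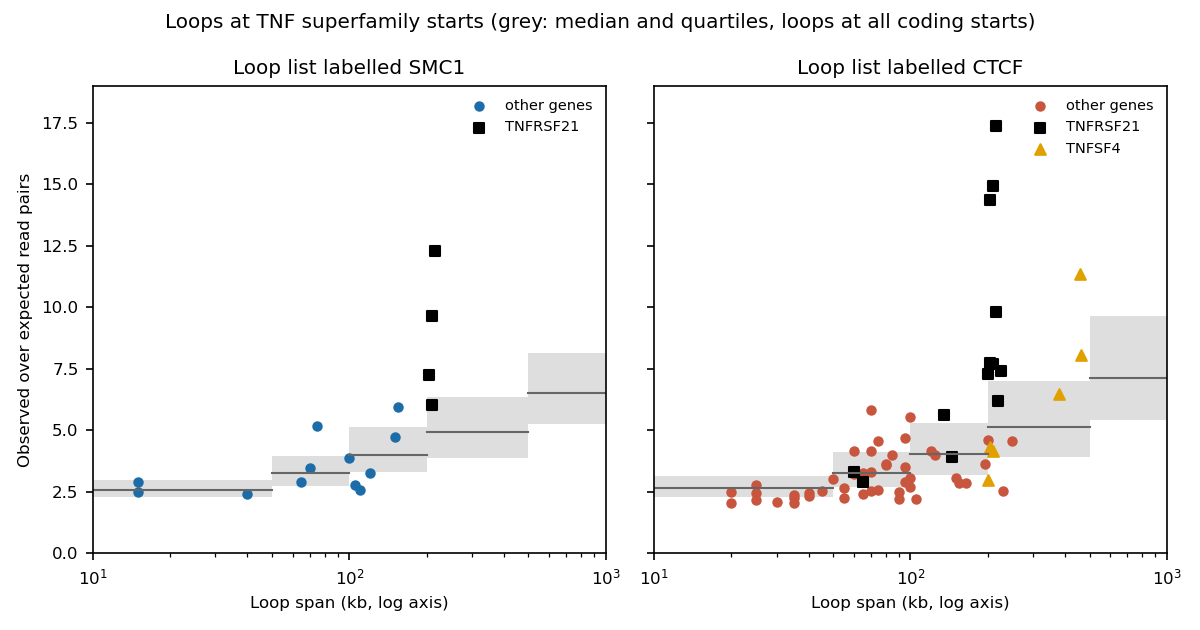
The ratio of observed to expected read pairs is plotted against loop span in kb (log axis) for the loops at superfamily starts in the list labelled SMC1 (left) and the list labelled CTCF (right), with grey lines and bands for the median and quartiles of loops at all coding starts in the same span range. Most points lie in or near the bands, and several loops of TNFRSF21 and TNFSF4 over 200 kb, with ratios up to 17.4 and 11.4, lie above them.

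Other genes of the pathway, from a list of the superfamily members with other symbols and a list of their signalling genes, were counted in the same way. Over all coding genes, 84.2% had an SMC1 and 79.3% a CTCF peak within 20 kb. Of 12 further receptors and ligands, 9 had an SMC1 and 8 a CTCF peak within that distance. The exceptions for SMC1 were TNF, LTA and LTB, which lie together on chromosome 6 and whose start windows are all also found on an alternate contig. CD40, the receptor for T cell help, had 8 SMC1 and 6 CTCF peaks, the strongest with 114 and 154, and CD27 10 and 3. All 11 signalling genes had peaks of both targets. Among these 11 is MAP3K14, with 3 peaks of each target, although its start window is also found on an alternate contig. TRADD, the adaptor of TNF receptor 1, had 21 loops labelled SMC1 and 14 labelled CTCF, more than any gene named TNFRSF or TNFSF. Many of its far bins touch, and they were not merged into stretches for TRADD. For comparison, SMC1 lay within 20 kb of 97.4% of 78 interleukin and interleukin receptor genes and 69.6% of 56 chemokine and chemokine receptor genes, and within 1 kb of 42.3% and 25%, against 63.6% in the TNF superfamily.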

How the data were processed

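Chromatin of 1 LCL, HG00731, was profiled for SMC1 (FA-EGS) and for CTCF (FA), with 2 biological replicates per target. Reads were aligned by the authors with BWA-MEM on hg38. They kept a MapQ over 30, removed duplicates, pooled replicates and called peaks with MACS3 3.0.1 (per the labels' processing notes) at a q-value of 0.01 without input, and loops between 5 kb bins with MAPS. The deposited values used were the fold ratio at the summit, the -log10 q-value of each peak, the raw count of read pairs per loop with the count MAPS expects, and the q-value (false discovery rate) the authors deposited for each loop. The depth per replicate is not given in the sources used here.

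Members, gene lists and role groups were chosen with earlier results of these data known. Gene starts came from GENCODE release 44. Loop lists were named by their deposited labels, which appear exchanged. The named genes were all 33 members, by role. The E-box, RUNX, AP-1, ETS, kappaB and EBF letters and the sequences at loop anchors were added after values were seen. Windows of 5 kb on either side of coding starts were mapped to alternate contigs with minimap2 2.31 (at least 90% covered, estimated identity at least 90%). Poisson intervals (95%) cover counting error only. Interval functions were tested on simulated data and recovered 200 of 200 planted features in each of 5 steps. Python 3.11.15, pandas 2.3.3, SciPy 1.17.1, pysam 0.24.0 and Matplotlib 3.10.9 were used. The alternatives tried are given in the closing section.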

Additional observations from a re-analysis of the deposited data

How the results depend on the processing

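Of 89 recomputed values, 66 stayed within 1.5 times the reported count, or within the Wilson interval of the reported share, and 23 moved. No paired analysis was possible because the lists pool both replicates. With the window around the start cut to 10 kb the peaks near the genes fell from 138 to 85 (SMC1) and from 76 to 42 (CTCF), at 5 kb to 52 and 25, and genes with a CTCF peak from 29 to 19. Keeping peaks whose -log10 q-value reached 10 gave 46 for CTCF. Genes with a loop labelled SMC1 numbered 6 with loops of at least the median read pairs and 6 at a false discovery rate of at most 0.001, in place of 10. When each loop list was given to the other target, which is the assignment that its content and the study's totals give, 16 genes had a loop assigned to SMC1 and 10 to CTCF.

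The number of loops at the starts moved with the anchor rule, the read-pair minimum and the merging of bins. With any protein-coding transcript start they numbered 27 (SMC1) and 102 (CTCF), within 5 kb 30 and 106, with at least the median read pairs 9 and 43, and with the start inside the anchor 10 for the label SMC1. Merging touching far bins, chosen after seeing the data, left 37 for the label CTCF. For the label SMC1, near anchors with a peak of that target numbered 10 of 10 with the start inside the anchor and 27 of 30 within 5 kb. In the main setting they were 16 of 16, so these counts moved with the number of loops. The CTCF pattern was found at 2 peaks within 25 bp, 11 within 100 bp and, in an alternative chosen after seeing the data, 18 over the whole peak. The lists give no depth per replicate, so weak peaks and loops cannot be judged for reproducibility.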

Other observations

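The gene with the most CTCF peaks that had no SMC1 overlap was TNFRSF25, with 4 of 5 and -log10 q-values of 8.13 to 10.7. Over the superfamily 22 of the 76 CTCF peaks had no SMC1 overlap, none above 30.5, which was the peak 2.00 kb downstream of the TNFRSF10B start. The loop lists held no read-pair count for bin pairs that were not called, so no value can be given for the starts without a loop.

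The peak lists also held 76 SMC1 and 78 CTCF peaks on alternate contigs, none of them on the contig that aligns around TNFRSF14.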
